A study of Sparus aurata with 8 samples.

Results

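The genes described here are the splicing factors and the proteins of the small nuclear ribonucleoproteins (snRNPs) of the gilthead seabream, Sparus aurata. They were the protein-coding features of the count table whose product name holds the words splicing factor, pre-mRNA, small nuclear ribonucleo or U6 snRNA-associated, which gave 63 of 31501 protein-coding features and of 197399 features in all. They carry 53 product names, 10 of them shared by a pair of features. RNA-seq was done on ejaculated spermatozoa (SPZ_EJ), collected by gentle pressure on the abdomen, and on haploid germ cells (HGC), a population of spermatocytes II and spermatids obtained from the testis by fluorescence-activated sorting. Both came from adult males of a captive stock, for which no experimental treatment is described. Each group had 4 libraries, with a pool of 3 males behind each library. Sperm donors were sedated with phenoxyethanol, and testis donors were anaesthetised and decapitated. The methods describe collagenase digestion, staining with SYBR Green and sorting for HGC only. These differences in handling cannot be told apart from the cell type. The methods give a single number of males for both groups, which 4 pools of 3 would use up, so the groups may share males, but no source ties a pool of SPZ_EJ to a pool of HGC.

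The spliceosome removes introns from pre-mRNA. The U1 snRNP binds the 5′ splice site, SF1 and U2AF mark the branch point and the 3′ splice site until the U2 snRNP takes over, and the U4/U6.U5 tri-snRNP then joins and is remodelled by RNA helicases into the catalytic form. SR proteins, which carry domains rich in arginine and serine, bind exons and help to choose splice sites. Spermatids build the sperm head and flagellum largely from transcripts made earlier. The source of the RNA measured in SPZ_EJ was not tested.

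Libraries held 15395220 to 17886675 counts in SPZ_EJ and 19865716 to 30645027 in HGC, and every library was used. Levels are CPM, a feature's counts relative to its library's size after TMM scaling. CPM is not corrected for transcript length, so levels of different genes are not compared. Features of ribosomal RNA types took 10.8% to 31.8% of the counts in SPZ_EJ, highest in replicate 2, and 11.5% to 14.6% in HGC. The methods describe lower RNA integrity in SPZ_EJ than in HGC, and this cannot be told apart from the cell type. Fewer copies of an mRNA per cell and fewer cells that carry it cannot be told apart either. Among leukocyte marker genes 24 of 28 tested were higher in SPZ_EJ, with summed levels of 3567 to 8485 CPM in SPZ_EJ and 561 to 728 CPM in HGC. SPZ_EJ replicate 1 had the highest sum. Of the 34 leukocyte features, 2 had no count in SPZ_EJ and 4 none in HGC, all of them class II histocompatibility or receptor-type tyrosine phosphatase C features. Of the meiosis and spermatid markers 26 of 32 tested were lower in SPZ_EJ, with sums of 297 to 742 CPM in SPZ_EJ and 10344 to 15601 CPM in HGC, and 1 of the 35 features, an axonemal dynein heavy chain, had no count in any library. Duct epithelium markers were higher in 4 and lower in 1 of 7 tested features, with sums of 621 to 1371 CPM in SPZ_EJ and 85.4 to 146 CPM in HGC, and 8 of the 23 features, all claudin-4, had no count in HGC. Erythrocyte markers were lower in 3 of 4, with sums of 9.55 to 26.5 CPM in SPZ_EJ and 23.2 to 682 CPM in HGC, the highest in HGC replicate 4, and 1 of the 10 features, a hemoglobin beta, had no count in any library. Testis somatic markers were lower in 1 of 2, with sums of 3.25 to 11.8 CPM in SPZ_EJ and 6.5 to 16.6 CPM in HGC, and 2 of the 6 features, both steroidogenic acute regulatory protein, had no count in SPZ_EJ. The part of other cell types in the results below was not tested.

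Most of the splicing mRNAs were not called different between ejaculated sperm and haploid germ cells. Of the 63 members, 59 passed the filter on low counts, and the quasi-likelihood test of edgeR, with p-values adjusted by Benjamini and Hochberg's method across the 21375 tested features, called 4 higher and 15 lower in SPZ_EJ (adjusted p below 0.01 and absolute log2 fold change above 1). This is 32.2% of the tested members, against 55.8% of 15302 tested protein-coding features and 56.9% of all tested features. Members called higher were 6.78% of those tested, against 23.9% of the protein-coding features, and members called lower were 25.4%, against 31.9%. Their median log2 fold change was -0.27, with a median size of 0.55 regardless of sign, and the protein-coding features had a median of -0.29 and a median size of 2.02. All 4 SPZ_EJ libraries lay above all 4 HGC libraries for 7 members (11.9%, against 27.6% of the protein-coding features) and below them for 20 (33.9%, against 38.0%).

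**Figure D1:**
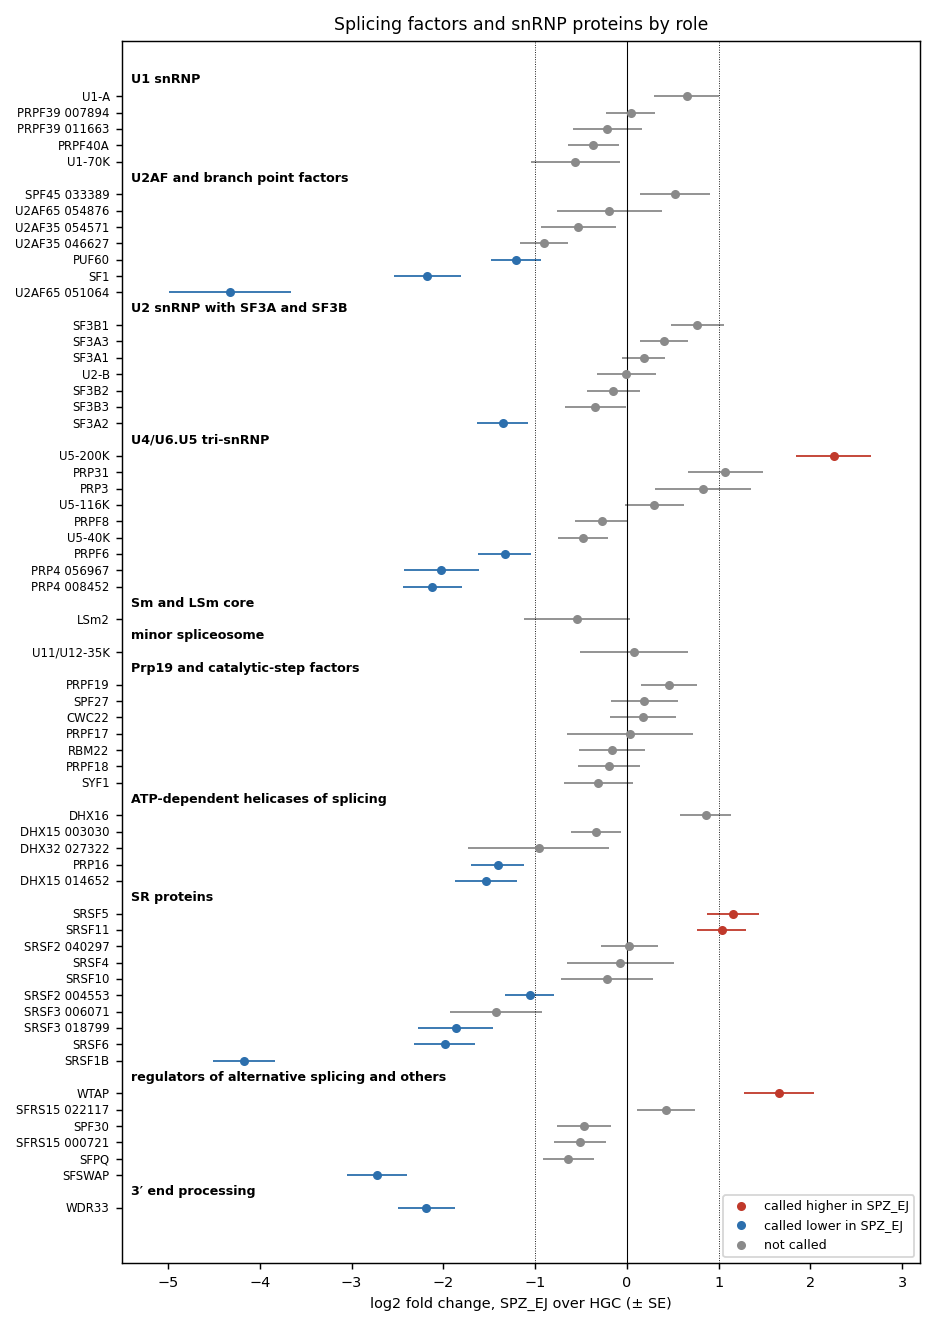
Log2 fold change of SPZ_EJ over HGC with its SE for the 59 tested members, grouped by role. Positive values are higher in SPZ_EJ, dotted lines mark the fold threshold, and the digits after a name are the last ones of the feature's identifier. The 5 U1 and 7 Prp19 and catalytic-step members all lie between -0.56 and 0.65 without a call, and SRSF1B and 1 of the U2AF65 features lie below -4.

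The numbers of rises and falls depended on how libraries were scaled. With library size only, a scaling that moved the median of all tested features by 0.73 on the log2 scale, 7 members were called higher and 4 lower (63.6% of the calls higher, against 21.1% with TMM). The upper quartile gave 7 higher and 12 lower (36.8% higher). TMM on protein-coding features alone, chosen after seeing the data, gave 7 and 10 (41.2% higher). The extra rises under these 3 scalings were the U2 snRNP subunit SF3B1, the U4/U6 protein PRP31 and the helicase DHX16. The 4 rises called with TMM kept their call under each of the 3. With library size only, the upper quartile and protein-coding TMM, 4, 12 and 10 of the 15 falls kept theirs. PUF60, PRPF6 and SRSF2 Saurata1B004553 lost the call under all 3, and SF3A2 and PRP16 under the first and last. Under library size only, 20 members that were below 0 with TMM and not called turned positive, among them PRPF8, LSm2 and the features SFRS15 Saurata1B000721, DHX15 Saurata1B003030 and U2AF65 Saurata1B054876. No called member changed its direction in any of the 23 alternatives that tested it. U5-200K, SRSF1B, SFSWAP, U2AF65 Saurata1B051064 and PRP4 Saurata1B008452 were called in each of these. The U2AF65 feature passed the filter through its HGC counts alone, so its calls add nothing. Without SPZ_EJ replicates 3 and 4 together, also chosen after seeing the data, 2 members were called higher and 8 lower.

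**Figure D2:**
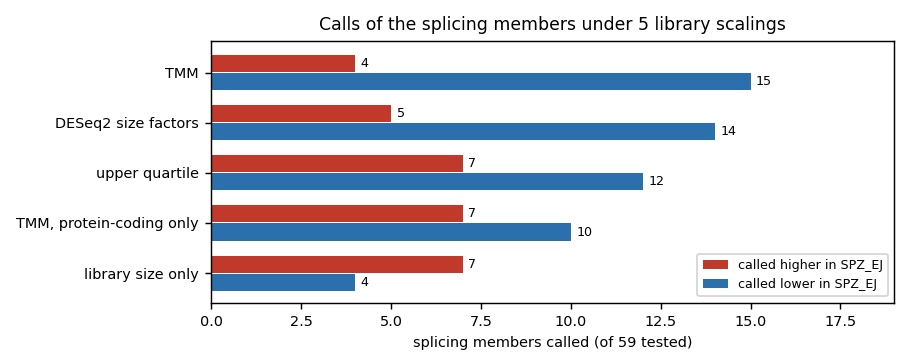
Number of members called higher (red) and lower (blue) in SPZ_EJ under 5 library scalings. The falls range from 15 with TMM to 4 with library size only, and the rises from 4 to 7.

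The members together made up 0.395%, 0.168%, 0.277% and 0.355% of all counts in SPZ_EJ replicates 1 to 4, and 0.158%, 0.198%, 0.187% and 0.222% in HGC replicates 1 to 4. SPZ_EJ replicate 2 lay within the range of HGC and the other SPZ_EJ libraries above it. Of the protein-coding counts alone they made up 0.428% ± 0.0848 in SPZ_EJ and 0.227% ± 0.0344 in HGC (SD, n = 4 each), and by this measure the groups did not overlap. After TMM scaling their summed level was 2334 ± 260 CPM in SPZ_EJ and 2426 ± 99.7 CPM in HGC. By library it was 2430, 1947, 2461 and 2499 CPM in SPZ_EJ replicates 1 to 4 and 2328 to 2562 CPM in HGC. Replicate 2 lay below the range of HGC and the other SPZ_EJ libraries within it. The order of the group means thus turned with the scaling, but the groups overlapped after TMM. One mRNA, that of U5-200K, supplied 5.69% to 22.1% of the members' counts in SPZ_EJ and 2.40% to 4.01% in HGC.

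U5-200K, the helicase of the U5 snRNP that unwinds U4 from U6 when the spliceosome is activated (gene snrnp200), rose most among the members that passed the filter. It stood at 138, 430, 531 and 372 CPM in SPZ_EJ replicates 1 to 4 and at 61.2, 58.5, 95.5 and 92.9 CPM in HGC replicates 1 to 4. Replicate 1 was the lowest SPZ_EJ library and still above every HGC library. The means were 368 ± 167 CPM in SPZ_EJ and 77.0 ± 19.9 CPM in HGC (log2 fold change 2.26, SE 0.41, adjusted p = 0.000517 in edgeR, as for the values below).

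None of the other proteins of the tri-snRNP was called higher. PRPF8, the large scaffold at the heart of the U5 snRNP, had 67.5, 40.7, 38.3 and 32.5 CPM in SPZ_EJ and 54.1, 55.7, 54.5 and 52.4 CPM in HGC (log2 fold change -0.27, SE 0.29). Replicate 1 was above and the other SPZ_EJ libraries below all HGC libraries, and this change was not called. PRPF6, which bridges U5 with U4/U6, fell to 24.4, 12.8, 18.6 and 22.2 CPM in SPZ_EJ, against 55.6, 42.8, 49.1 and 48.9 CPM in HGC (log2 fold change -1.33, SE 0.29, adjusted p = 0.0016). The lowest HGC library was well above the highest SPZ_EJ library.

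PRP4, a WD-repeat protein of U4/U6, has 2 features and both fell. Saurata1B008452 had 4.56, 6.95, 7.59 and 6.17 CPM in SPZ_EJ and 34.9, 29.9, 24.1 and 21.0 CPM in HGC (log2 fold change -2.12, SE 0.32, adjusted p = 0.000163). Saurata1B056967 had 1.5996 to 2.86 CPM in SPZ_EJ and 7.15 to 11.7 CPM in HGC (log2 fold change -2.02, SE 0.41, adjusted p = 0.00104). Neither feature overlapped between the groups. PRP31, which binds U4 and is needed to hold the tri-snRNP together, had 20.9, 18.9, 30.9 and 68.0 CPM in SPZ_EJ and 15.7, 18.1, 15.8 and 16.4 CPM in HGC. All SPZ_EJ libraries were above HGC, replicate 4 by far the most, but the change was not called (log2 fold change 1.07, SE 0.41, adjusted p = 0.0356). The remaining tri-snRNP members PRP3, the U5 GTPase and U5-40K were not called. In all, 1 of the 9 rose (11.1%, against 23.9% of the protein-coding features) and 3 fell (33.3%, against 31.9%). The share of falls was thus near that of the protein-coding features.

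**Figure D3:**
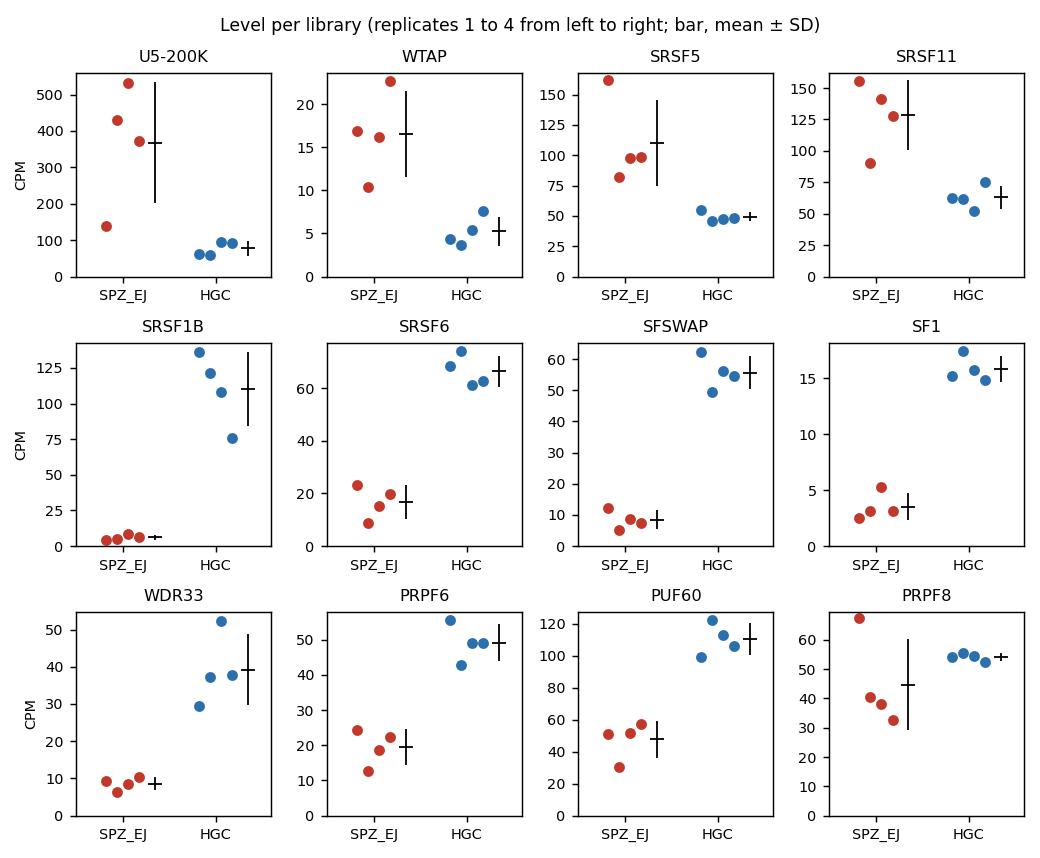
Level in CPM of 12 members in each SPZ_EJ library (red, left) and HGC library (blue, right), with the mean and SD as a bar. Each axis starts at 0. The 4 rises fill the top row, the SPZ_EJ libraries of SRSF1B lie between 4.56 and 8.20 CPM, and PRPF8 is shown as a member that was not called.

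Of 7 tested members that recognise the branch point and the 3′ splice site 3 fell (42.9%, against 31.9% of the protein-coding features) and none rose. SF1, the branch point binding protein, had 2.51, 3.12, 5.24 and 3.15 CPM in SPZ_EJ and 15.2, 17.4, 15.8 and 14.9 CPM in HGC. The HGC libraries were close together and all SPZ_EJ libraries far below them (log2 fold change -2.17, SE 0.36, adjusted p = 0.000307). PUF60, a relative of U2AF65 that binds the same kind of pyrimidine-rich tract, had 50.7, 30.5, 51.8 and 57.4 CPM in SPZ_EJ and 99.1, 122, 113 and 106 CPM in HGC (log2 fold change -1.21, SE 0.27, adjusted p = 0.00218). Its groups did not overlap.

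U2AF65, the large subunit of the factor that binds the polypyrimidine tract, has a pair of features that behaved differently. Saurata1B051064 had 0.174, 0.0650, 0.335 and 0.0914 CPM in SPZ_EJ and 3.36, 2.84, 5.11 and 2.56 CPM in HGC (log2 fold change -4.33, SE 0.67, adjusted p = 0.00018), the largest fall of all members. It is a feature of few counts, with 14 counts in the 4 SPZ_EJ libraries together. It passed the filter through its HGC counts alone, so its call and its rank add nothing. Saurata1B054876 had 0.870, 1.82, 4.63 and 1.83 CPM in SPZ_EJ and 2.29, 2.03, 2.78 and 3.31 CPM in HGC, with overlap and no call (log2 fold change -0.19, SE 0.57, adjusted p = 0.779). The small subunit U2AF35 had 26.2 to 36.7 CPM in SPZ_EJ and 49.2 to 69.2 CPM in HGC at its more counted feature, Saurata1B046627. Its groups did not overlap, and it passed the adjusted p but missed the fold threshold (log2 fold change -0.91, SE 0.26, adjusted p = 0.00893).

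The U2 snRNP and its SF3A and SF3B complexes, which clamp U2 to the branch point, held 1 fall among 7 tested members. This is 14.3%, against 31.9% of the protein-coding features. SF3A2 had 10.3, 8.90, 10.1 and 7.91 CPM in SPZ_EJ and 20.6, 26.7, 25.3 and 22.6 CPM in HGC, without overlap (log2 fold change -1.36, SE 0.28, adjusted p = 0.0013). SF3B1, the largest SF3B subunit, had 274, 169, 199 and 165 CPM in SPZ_EJ and 104, 158, 93.3 and 118 CPM in HGC. Here every SPZ_EJ library was above every HGC library, and the difference was not called (log2 fold change 0.77, SE 0.29, adjusted p = 0.0313). The other 5 tested members of this group, SF3A1, SF3A3, SF3B2, SF3B3 and U2-B, overlapped between the groups.

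None of the 5 U1 snRNP members was called, against 55.8% of the protein-coding features called in either direction. The one with most counts, the PRPF39 feature Saurata1B007894, had 99.5, 83.7, 66.2 and 56.3 CPM in SPZ_EJ and 86.0, 62.1, 71.6 and 77.5 CPM in HGC (log2 fold change 0.04, SE 0.27, adjusted p = 0.903). PRPF39 is an accessory protein of U1. The whole group spanned log2 fold changes of -0.56 to 0.65. Its 5 members overlapped between SPZ_EJ and HGC, as did 5259 of the 15302 tested protein-coding features.

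The Prp19 complex and the factors of the catalytic steps were likewise without a call in 7 tested members, against 55.8% of protein-coding features called. Their log2 fold changes were -0.31 to 0.46. PRPF19, the ubiquitin ligase that gives the complex its name, had 120, 56.3, 103 and 114 CPM in SPZ_EJ and 63.7, 71.4, 56.9 and 93.2 CPM in HGC (log2 fold change 0.46, SE 0.31, adjusted p = 0.197). Replicate 2 was below every HGC library and the other SPZ_EJ libraries were above all of them. PRPF17, a factor of the second catalytic step, had 1.81, 1.04, 1.12 and 8.36 CPM in SPZ_EJ and 3.14, 2.66, 3.07 and 3.197 CPM in HGC. Replicates 1 to 3 of SPZ_EJ were below and replicate 4 above every HGC library (log2 fold change 0.03, SE 0.68, adjusted p = 0.968), and without that replicate the log2 fold change was -1.05.

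Among the helicases, PRP16, which remodels the spliceosome between the catalytic steps, fell to 33.3, 41.3, 26.2 and 33.0 CPM in SPZ_EJ, against 124, 71.3, 71.9 and 87.9 CPM in HGC (log2 fold change -1.41, SE 0.29, adjusted p = 0.00118). No library of one group reached into the other. DHX16, which acts at activation of the spliceosome, had 28.5, 22.7, 24.2 and 24.1 CPM in SPZ_EJ and 12.4, 11.3, 13.4 and 17.7 CPM in HGC. It was above HGC in all 4 SPZ_EJ libraries and was not called (log2 fold change 0.86, SE 0.28, adjusted p = 0.0174).

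DHX15, which takes spent spliceosomes apart, has a pair of features. Saurata1B014652 had 15.4, 8.84, 17.7 and 24.5 CPM in SPZ_EJ and 47.9, 53.3, 37.7 and 53.4 CPM in HGC, without overlap (log2 fold change -1.53, SE 0.34, adjusted p = 0.00188). Saurata1B003030 had 31.7 to 40.4 CPM in SPZ_EJ and 31.9 to 56.8 CPM in HGC, with overlap (log2 fold change -0.33, SE 0.27, adjusted p = 0.293).

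The DHX32 features had few counts in most libraries. Saurata1B048008 had 2, 6, 160 and 198 counts in SPZ_EJ replicates 1 to 4 and 0, 0, 4 and 1 counts in HGC replicates 1 to 4. SPZ_EJ replicates 3 and 4 held nearly all of them, and replicate 1, at 0.0696 CPM, was below the highest HGC library at 0.166 CPM. It did not pass the filter, and an exact permutation test of the mean CPM gave p = 0.0571, two-sided, where 0.0286 is the smallest that 4 against 4 libraries allow. Without the filter edgeR called it higher (log2 fold change 5.47, adjusted p = 1.55e-06), and so did DESeq2 (6.15, adjusted p = 3.75e-05). Both fits rest on 5 counts in HGC and mainly on SPZ_EJ replicates 3 and 4, so these calls add nothing. Saurata1B027322 had 0.244, 0.260, 1.84 and 1.74 CPM in SPZ_EJ and 2.93, 2.37, 0.831 and 1.86 CPM in HGC, with overlap (log2 fold change -0.96, SE 0.77, adjusted p = 0.28).

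Of 10 tested features of SR proteins 2 were higher and 4 lower, and the share of 60% called is near the 55.8% of the protein-coding features. SRSF1B, of the SRSF1 type that promotes the use of nearby splice sites, had 4.56, 5.13, 8.20 and 6.58 CPM in SPZ_EJ and 136, 122, 108 and 75.7 CPM in HGC. The lowest HGC library was far above every SPZ_EJ library. The means were 6.12 ± 1.63 CPM in SPZ_EJ and 110 ± 25.8 CPM in HGC (log2 fold change -4.17, SE 0.34, adjusted p = 2.65e-06).

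SRSF6 had 23.3, 8.71, 15.2 and 19.97 CPM in SPZ_EJ and 68.4, 74.0, 61.1 and 62.6 CPM in HGC, without overlap (log2 fold change -1.98, SE 0.33, adjusted p = 0.000312). Its relative SRSF5, built on the same plan of RNA-binding domains, went the other way with 162, 81.7, 97.7 and 98.4 CPM in SPZ_EJ and 55.2, 46.1, 47.6 and 48.6 CPM in HGC (log2 fold change 1.15, SE 0.28, adjusted p = 0.00351). Every SPZ_EJ library was above HGC, replicate 1 the most. SRSF11 had 155, 90.5, 141 and 127 CPM in SPZ_EJ and 62.1, 62.0, 52.5 and 75.1 CPM in HGC, again without overlap and highest in replicate 1 (log2 fold change 1.03, SE 0.27, adjusted p = 0.00499).

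These rises of SR proteins were near the limits of the test. SRSF5 was not called without any one of the HGC replicates (adjusted p = 0.0316, 0.0464, 0.0436 and 0.0364 without replicates 1 to 4) or without SPZ_EJ replicate 1 (0.0148) by the same test. SRSF11 was not called without any one of the HGC replicates (0.057, 0.0589, 0.0751 and 0.0291) or without SPZ_EJ replicate 1 or 3 (0.0241 and 0.0188). Neither SRSF5 nor SRSF11 was called with DESeq2, the tool of the study (adjusted p = 0.0121 and 0.0151). The same held in edgeR with a replicate block (0.0108 and 0.019) and without the filter (0.239 and 0.277). Over all alternatives the adjusted p ran from 0.000322 to 0.239 for SRSF5 and from 0.000399 to 0.277 for SRSF11. SPZ_EJ replicate 1, the highest library for both, also had the highest sums of leukocyte and of duct epithelium markers. It was the highest of the 4 for 36.8% of the protein-coding features. Of the other members called higher, U5-200K was lowest in this replicate and WTAP was highest in replicate 4. The part of other cell types was not tested.

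SRSF2 and SRSF3 each have a pair of features. The SRSF2 feature Saurata1B004553 had 58.1, 40.1, 31.8 and 42.1 CPM in SPZ_EJ and 90.0, 81.1, 87.3 and 101 CPM in HGC (log2 fold change -1.06, SE 0.27, adjusted p = 0.00433). It was not called without SPZ_EJ replicate 3 or 4 (adjusted p = 0.0362 and 0.0295, same test). Nor was it called with DESeq2 (0.0351) or in edgeR with a replicate block (0.0127). This fall lost its call in 11 of 22 alternatives, over which the adjusted p ran from 0.000191 to 0.536. Saurata1B040297, the SRSF2 feature with more counts, had 115, 63.7, 96.3 and 114 CPM in SPZ_EJ and 60.7, 105, 131 and 84.7 CPM in HGC, with overlap (log2 fold change 0.03, SE 0.31, adjusted p = 0.942). SRSF3, the smallest SR protein, fell at Saurata1B018799, with 1.81, 2.99, 2.01 and 3.11 CPM in SPZ_EJ and 10.9, 7.52, 10.8 and 6.86 CPM in HGC (log2 fold change -1.87, SE 0.41, adjusted p = 0.00178). Its other feature, Saurata1B006071, was below HGC in all 4 SPZ_EJ libraries and not called (log2 fold change -1.42, SE 0.50, adjusted p = 0.0251). The remaining members of this group, SRSF4 and SRSF10, stayed at or below 2.91 CPM in every library and were not called.

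WTAP, a subunit of the complex that writes N6-methyladenosine on mRNA, is called a splicing regulator by its product name, and rose. It had 16.9, 10.5, 16.2 and 22.7 CPM in SPZ_EJ and 4.36, 3.65, 5.36 and 7.62 CPM in HGC. All SPZ_EJ libraries were above all HGC libraries (log2 fold change 1.66, SE 0.38, adjusted p = 0.00256). Without HGC replicate 1, 2 or 3 it was not called (adjusted p = 0.0236, 0.0244 and 0.019, same test), and over all alternatives the adjusted p ran from 0.000244 to 0.169.

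SFSWAP, the homolog of the Drosophila suppressor of white-apricot, which regulates the splicing of its own transcript in the fly, fell to 12.3, 5.003, 8.82 and 7.50 CPM in SPZ_EJ, against 62.4, 49.4, 56.1 and 54.7 CPM in HGC (log2 fold change -2.72, SE 0.33, adjusted p = 3.39e-05). The groups lay far apart. The most counted regulator, the SFRS15 feature Saurata1B000721, had 116.3, 61.3, 117 and 122 CPM in SPZ_EJ and 147, 154, 137 and 155 CPM in HGC. All SPZ_EJ libraries were below HGC, replicate 2 the most, and it was not called (log2 fold change -0.51, SE 0.28, adjusted p = 0.122). SFPQ and SPF30 were not called either.

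WDR33, the subunit of the cleavage and polyadenylation factor that reads the polyadenylation signal, was taken in by its product name and is not a splicing factor in the strict sense. It had 9.22, 6.37, 8.54 and 10.3 CPM in SPZ_EJ and 29.4, 37.2, 52.3 and 37.9 CPM in HGC. The groups did not overlap (log2 fold change -2.19, SE 0.31, adjusted p = 9.86e-05).

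The smallest groups had few counts. LSm2, of the ring that binds the end of U6, had 1.08, 0.390, 0.781 and 0.503 CPM in SPZ_EJ and 0.929, 0.695, 1.66 and 0.756 CPM in HGC (log2 fold change -0.55, SE 0.58, adjusted p = 0.413). U11/U12-35K, the only member of the minor spliceosome, had 2.26, 1.17, 0.502 and 2.79 CPM in SPZ_EJ and 1.57, 1.505, 1.45 and 1.86 CPM in HGC (log2 fold change 0.08, SE 0.59, adjusted p = 0.912). Both overlapped between the groups. Besides the DHX32 feature, 3 members did not pass the filter. The Sm core protein SmF had 32 counts in all SPZ_EJ libraries together and 16 in HGC, the second SPF45 feature 11 and 3, and SF3B6 2 and 2, and no difference was detectable at this depth (exact permutation p = 0.114, 0.429 and 1.0, two-sided).

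Where a product name has a pair of features, their ratio within a library does not depend on how libraries are scaled. The ratio could be formed in all 8 libraries for 9 of the 10 pairs, and SPZ_EJ and HGC did not overlap for 5 of these. Single protein-coding features lay apart in 27.6% (SPZ_EJ above) and 38.0% (SPZ_EJ below) of cases, and pairs outside the members were not examined. Where both features were tested, the one with the larger log2 fold change was the numerator. The direction of these ratios was thus set by this choice. For U2AF65 the counts of Saurata1B054876 were 5, 28, 13.8 and 20 times those of Saurata1B051064 in SPZ_EJ and 0.681, 0.714, 0.545 and 1.295 times in HGC. Saurata1B051064 had only 5, 1, 6 and 2 counts in SPZ_EJ replicates 1 to 4, so the size of these SPZ_EJ ratios is uncertain. For SRSF2, Saurata1B040297 had 1.59 to 3.03 times the counts of Saurata1B004553 in SPZ_EJ and 0.675 to 1.502 times in HGC. For DHX15, Saurata1B003030 had 1.61 to 3.78 times the counts of Saurata1B014652 in SPZ_EJ and 0.666 to 1.51 times in HGC.

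For SFRS15, Saurata1B022117 had 0.108 to 0.211 times the counts of Saurata1B000721 in SPZ_EJ and 0.0661 to 0.0907 times in HGC. The DHX32 pair stood apart as well, on counts that were few in most libraries. In contrast the ratios of the PRP4, PRPF39, SRSF3 and U2AF35 pairs overlapped between the groups. These ratios are a description without a test. RSEM divides reads that map to several features by an estimate, so that single features of a pair are less certain than their sum.

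**Figure D4:**
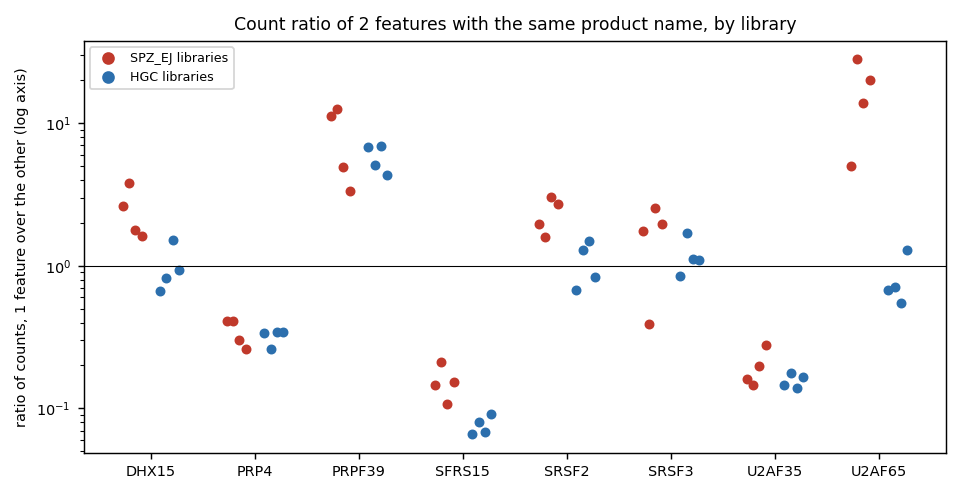
Ratio of the counts of 2 features with the same product name in each SPZ_EJ library (red, left) and HGC library (blue, right), on a log axis. The feature with the larger log2 fold change is the numerator. For U2AF65 the SPZ_EJ libraries, on few counts, lie at 5 to 28 and the HGC libraries at 0.545 to 1.295. For PRP4 and U2AF35 they overlap.

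The members varied more among SPZ_EJ pools than among HGC pools. The coefficient of variation had a median of 29.3% in SPZ_EJ and 18.2% in HGC over the tested members, and was larger in SPZ_EJ for 48 of 59 members (81.4%, against 63.9% of the protein-coding features). Over the protein-coding features the medians were 42.8% in SPZ_EJ and 30.1% in HGC. SPZ_EJ replicate 2, the library with the highest share of ribosomal RNA, was the lowest of the 4 for 33 of the 59 members. This is a larger share than the 31.8% of the protein-coding features. Replicates 4 and 1 were the highest for 24 and 23 of the 59 members, and for 27.4% and 36.8% of the protein-coding features.

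The genes that act around the spliceosome were examined in lists formed from product names, to be read beside the 23.9% higher, 31.9% lower and median of -0.29 of the protein-coding features. Of 17 tested heterogeneous nuclear ribonucleoproteins (hnRNPs), which coat nascent transcripts, 2 were higher and 6 lower in SPZ_EJ (median log2 fold change -0.47). HNRNPA1, which often opposes SR proteins, rose at Saurata1B016002 to 66.8, 59.97, 87.7 and 96.5 CPM in SPZ_EJ, against 12.4, 11.98, 9.88 and 18.6 CPM in HGC (log2 fold change 2.56, SE 0.31, adjusted p = 3.66e-05). Its other feature, Saurata1B033630, had 0.948 to 5.12 CPM in SPZ_EJ and 3.88 to 6.22 CPM in HGC and was not called (HNRNPA1-b, log2 fold change -0.90, SE 0.55, adjusted p = 0.164). HNRNPU rose as well (log2 fold change 1.95, SE 0.31, adjusted p = 0.000215). The feature named hnRNP U 2 fell to 1.71 to 7.54 CPM in SPZ_EJ, against 24.1 to 52.6 CPM in HGC (HNRNPU2, log2 fold change -3.20, SE 0.48, adjusted p = 0.000143).

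Kinases that phosphorylate SR proteins were lower in 5 of 8 tested features and higher in none (median -2.67). CLK2 had 17.5, 30.2, 18.5 and 15.3 CPM in SPZ_EJ and 834, 476, 499 and 543 CPM in HGC (log2 fold change -4.85, SE 0.37, adjusted p = 1.94e-06). The SRPK1 feature Saurata1B039611 had 18.9 to 36.3 CPM in SPZ_EJ and 283 to 347 CPM in HGC (log2 fold change -3.50, SE 0.30, adjusted p = 3.64e-06). Neither overlapped. The other SRPK1 feature, Saurata1B037301, had 27.4 to 64.9 CPM in SPZ_EJ and 33.2 to 52.0 CPM in HGC (SRPK1-b, log2 fold change 0.36, SE 0.32, adjusted p = 0.331), and CLK1 had 41.9 to 96.1 CPM in SPZ_EJ and 45.6 to 60.6 CPM in HGC, and both were not called.

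Factors of cleavage and polyadenylation were lower in 6 of 10 tested features and higher in none (median -2.07). CPSF7, a subunit of the cleavage factor that binds upstream of the cleavage site, had 14.5, 25.3, 19.2 and 22.8 CPM in SPZ_EJ and 700, 575, 684 and 509 CPM in HGC (log2 fold change -4.92, SE 0.32, adjusted p = 1.47e-06). CSTF2, which binds the downstream element, had 17.8 to 26.8 CPM in SPZ_EJ and 225 to 318 CPM in HGC (log2 fold change -3.60, SE 0.28, adjusted p = 2.17e-06). Both were without overlap.

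In a list for the assembly of snRNPs, which also holds subunits of the Integrator complex, 5 of 13 tested features were lower and none higher (median -0.56). Integrator subunits 12 (log2 fold change -4.91) and 8 (-2.22) were among those lower, and its other tested subunits were not called. SMN1, the core of the complex that loads Sm proteins on snRNA, had 6.16, 4.42, 12.2 and 15.4 CPM in SPZ_EJ and 57.2, 49.6, 64.2 and 41.6 CPM in HGC (log2 fold change -2.48, SE 0.41, adjusted p = 0.000308). Snurportin-1, which carries finished snRNPs into the nucleus, had 35.1 to 56.1 CPM in SPZ_EJ and 198 to 264 CPM in HGC (SNUPN, log2 fold change -2.35, SE 0.27, adjusted p = 2.26e-05). The methylosome subunit pICln was lower too (-2.36). Gem-associated proteins 2, 5 and 6 (-0.48, -0.48 and 0.79) and arginine methyltransferase 5 (0.05) overlapped between the groups and were not called. Of the exon junction complex, 1 of 4 tested features was called, EIF4A3, with 4.20 to 6.75 CPM in SPZ_EJ and 16.8 to 29.8 CPM in HGC (log2 fold change -2.11, SE 0.33, adjusted p = 0.000196).

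Of 29 tested features of tissue regulators of alternative splicing 2 were higher and 8 lower (median -0.87). MBNL1, a muscleblind protein, rose to 482, 328, 316 and 248 CPM in SPZ_EJ, against 28.1, 13.6, 19.8 and 29.0 CPM in HGC (log2 fold change 3.92, SE 0.36, adjusted p = 5.86e-06). PTBP1, the polypyrimidine tract-binding protein, has a pair of features. Saurata1B042169 fell to 12.6, 12.3, 11.7 and 11.7 CPM in SPZ_EJ, against 271, 220, 255 and 212 CPM in HGC (log2 fold change -4.31, SE 0.27, adjusted p = 1.44e-06). MBNL1 and this PTBP1 feature stood apart in every library. The other PTBP1 feature, Saurata1B009519, had 159.6, 98.6, 77.5 and 58.5 CPM in SPZ_EJ and 115 to 130 CPM in HGC, with overlap and no call (PTBP1-b, log2 fold change -0.30, SE 0.32, adjusted p = 0.414), and held most of the PTBP1 counts in SPZ_EJ. MBNL1 levels over SPZ_EJ replicates 1 to 4 had the order of the leukocyte marker sums, 8485, 6078, 4910 and 3567 CPM. The duct epithelium marker sums, 1371, 1033, 868 and 621 CPM, had the same order, as did PTBP1-b, PRPF8 and PRPF39 Saurata1B007894, which were not called. Replicate 1 was the highest SPZ_EJ library for 36.8% of the protein-coding features, and the share with this whole order was not counted. The part of other cell types was not tested.

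**Figure D5:**
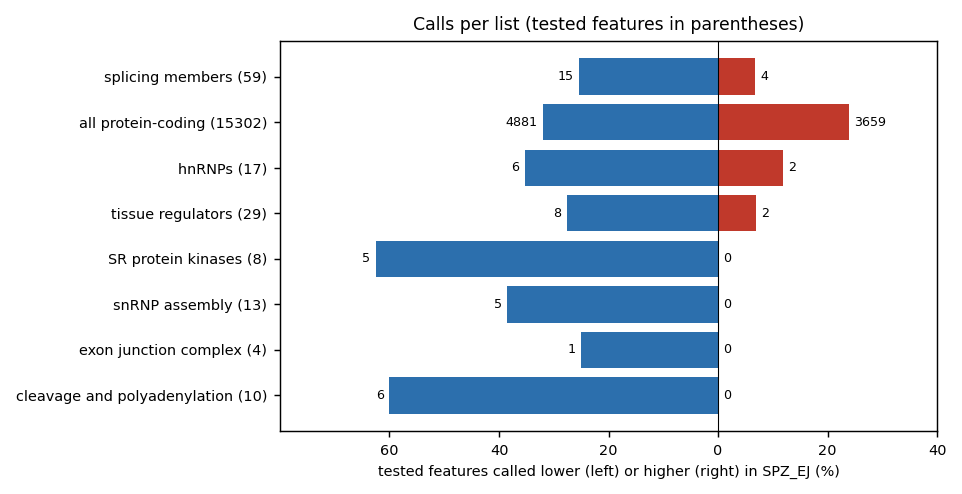
Share of the tested features called lower (blue, left) and higher (red, right) in SPZ_EJ for the members, all protein-coding features and 6 lists of related genes, with the number of calls beside each bar. The members have 4 rises and 15 falls of 59, and 4 of the 6 lists have no rise.

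The RNA components of the spliceosome lack a poly(A) tail and are not a target of oligo-dT priming. Counts on the 65 annotated spliceosomal snRNA features came to 405, 875, 1595 and 1120 in SPZ_EJ replicates 1 to 4 and to 15, 46, 29 and 16 in HGC replicates 1 to 4. Each SPZ_EJ library was above every HGC library despite fewer counts in all. Over all tested features, which include non-coding ones, SPZ_EJ lay wholly above HGC for 35.4%, against 27.6% of the protein-coding features alone. U2 features held 3387 of the SPZ_EJ counts and 94 of the HGC counts, and U5 features 246 in SPZ_EJ and 0 in HGC, where 3 counts are the limit that 0 allows. Only 2 features, both of U2, passed the filter. The larger had 12.4, 42.3, 73.0 and 41.8 CPM in SPZ_EJ and 0.929, 2.49, 0.955 and 0.698 CPM in HGC (U2-a, log2 fold change 5.06, SE 0.63, adjusted p = 4.07e-05). The other, with 10, 21, 39 and 17 counts in SPZ_EJ and 1, 0, 0 and 0 in HGC, passed through its SPZ_EJ counts alone, so its call adds nothing. The reads were not resolved by strand.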

How the data were processed

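The count table deposited by the authors holds expected counts per gene, as whole numbers without normalization. Per the submitters' processing notes and the methods, the authors mapped paired reads of unstranded SMARTseq2 libraries, primed with oligo-dT and amplified by PCR, with STAR 2.5.3a to their own extended annotation and counted with RSEM 1.3.0. Reads without molecular identifiers are not independent molecules, so limits from counts cover counting error only.

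Features were filtered with filterByExpr, scaled by TMM and compared by edgeR's quasi-likelihood test (edgeR 4.0.16, R 4.3.3), with Benjamini-Hochberg adjustment over all 21375 tested features. The SE was taken as the size of the log2 fold change over the root of edgeR's F statistic. Levels are given as mean ± SD of 4 libraries or per library. The p-values weigh the difference between the groups against the spread between pools, not between single males. They treat the groups as independent, although these may share males.

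Members were grouped by role from their product names. Named in each role were the member with the highest mean CPM and the called members with the largest rise and fall without overlap. Added were the 6 largest rises and falls over all members, and DHX32, U5-200K and WTAP, which the study names. Other members and the genes of related lists were named after their values were seen. The members and lists were chosen with earlier results of these data known. Short names such as U5-200K stand for product names.

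Alternatives were DESeq2 1.42.0, limma-voom (limma 3.58.1), other scalings, filters and thresholds, omission of the 20 most abundant or the ribosomal RNA features, each library left out, a replicate block, and product names summed. Added after seeing the data were TMM on protein-coding features only and omission of SPZ_EJ replicates 3 and 4 together. Python 3.11.15 and matplotlib 3.10.9 were used for summaries and figures. No sequences or coordinates are given, because no genome of the files' annotation was used here.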

Additional observations from a re-analysis of the deposited data

Results flagged for a closer look

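In 121 groups of 4 libraries (members with over 20 counts in that group, and the members' share of all counts), Dixon's ratio marked 2 single libraries that lay far from the other 3, where chance marks about 1 in 20 groups. PRPF17 stood at 8.36 CPM in SPZ_EJ replicate 4 and at 1.04 to 1.81 CPM in the other SPZ_EJ libraries. The SFRS15 feature Saurata1B000721 stood at 61.3 CPM in SPZ_EJ replicate 2 and at 116.3 to 121.5 CPM in the others.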

How the results depend on the processing

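Of the 19 called members, 5 were called in every alternative that tested them and 15 in every fit with 1 library left out, and none changed sign. Among these 5, U2AF65 Saurata1B051064 passed the filter through its HGC counts alone. Over all 59 tested members there were 117 changes of sign, in 31 members that were not called.

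With library size only, 11 members were called (7 higher, 4 lower), 5 hnRNPs and 0 exon junction features, and the log2 fold changes of PRPF8 (0.50), SFRS15 Saurata1B000721 (0.28), DHX15 Saurata1B003030 (0.41), U2AF65 Saurata1B054876 (0.44), LSm2 (0.26) and PTBP1-b (0.47) turned positive. The upper quartile gave 7 rises and positive values for U2AF65 Saurata1B054876 (0.15), PRPF8 (0.0725), PTBP1-b (0.0467) and DHX15 Saurata1B003030 (0.0129). TMM on protein-coding features only gave 7 rises, with DHX15 Saurata1B003030 at 0.17, U2AF65 Saurata1B054876 at 0.32, PTBP1-b at 0.23 and PRPF8 at 0.25. Without a filter 2 members rose, and U11/U12-35K (-0.42), SRSF2 Saurata1B040297 (-0.44), PRPF17 (-0.61), SFRS15 Saurata1B022117 (-0.0645), SRPK1-b (-0.0996) and PRPF39 Saurata1B007894 (-0.42) turned negative. With limma-voom, PRPF17 (-0.60), PRPF39 Saurata1B007894 (-0.11), U11/U12-35K (-0.63) and U2AF65 Saurata1B054876 (0.15) changed sign. DESeq2, run without the filter on low counts, called 20482 features in all and 11 snRNA features, with PRPF17 at -0.041. Apart from U2-a, these snRNA features had few or no counts in HGC, so their calls add nothing. The cause of these changes was not tested.

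Without SPZ_EJ replicates 3 and 4 together, where fewer samples were tested, 10 members were called (2 higher, 8 lower) and 4 hnRNPs, with PRPF17 at -0.93, PTBP1-b at 0.22 and PRPF8 at 0.13. Leaving out 1 library gave 1 to 4 rises and 3 to 10 called snRNA features. Apart from U2-a, the snRNA features had few or no counts in HGC. Those called passed the filter through their SPZ_EJ counts, so their calls add nothing. The log2 fold changes in these fits were -0.30 to 0.40 for U11/U12-35K, -0.25 to 0.29 for PRPF39 Saurata1B007894 and -1.05 to 0.28 for PRPF17. They were -0.78 to 0.0151 for PTBP1-b and -0.34 to 0.15 for SRSF2 Saurata1B040297. As a share of protein-coding counts only, the members' mean was 0.428% in SPZ_EJ and 0.227% in HGC, against 0.298% and 0.191% of all counts.

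With the replicate number as a block, 2 members rose and 14 fell, and PRPF17 (-0.58) and U11/U12-35K (-0.16) turned negative. Deviations of libraries with the same number correlated at 0.117, 0.0155, 0.0125 and 0.0818, so the numbers were not taken as a pairing. Members of few counts, such as LSm2, SmF and SF3B6, limit what these depths can show.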
